A study of Mus musculus with 12 samples.

Results

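Transcripts of 31 mitochondrial genes were followed in livers that lacked hemopexin, haptoglobin or both. The genes were chosen by symbol alone, as nuclear genes for subunits of the respiratory complexes and ATP synthase, the protein import translocases, the metabolite carriers and the mitochondrial ribosome. The platform carried 177 clones of 137 such genes, of which 36 clones of 31 genes held a value, out of 918 named genes and 2052 features measured in all (a feature is a named gene, with its clones averaged, or a clone without a single symbol). Of these genes, 19 had a value on all 12 arrays. Complex II (4 genes on the platform) and cytochrome c (1 gene) had no measured member. The measured members were 3 of 23 complex I subunits, 1 of 4 complex I assembly factors, 3 of 5 complex III genes, 4 of 10 complex IV genes, 9 of 16 ATP synthase genes, 5 of 15 import genes, 1 of 15 carriers and 5 of 44 mitochondrial ribosomal proteins.

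Each of 12 two-colour cDNA arrays set RNA from a null liver pool against RNA from a wild-type pool, with 4 arrays per genotype. Hx-null mice (Hp+/Hx-/-) lacked hemopexin and kept haptoglobin. Hp-null mice (Hp-/-Hx+) lacked haptoglobin and kept hemopexin, and the genotype HpHx-null (Hp-/-Hx-/-) lacked both, while wild-type mice carried functional Hp and Hx. All were adult littermates from Hp+/-Hx+/- parents of the mixed background C57/BLJ6 X 129Sv, perfused with PBS, and at least 5 livers were pooled per genotype. The labels point to 1 pool per genotype, so the 4 arrays of a genotype are repeated measurements of 1 pair of pools. Every p-value below therefore sets pools against the spread between arrays, which may be technical, and in pooled tissue fewer cells of a type and less RNA per cell cannot be told apart.

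The inner mitochondrial membrane carries the respiratory chain. Complexes I, III and IV pass electrons to oxygen and pump protons, and ATP synthase uses the returning protons to make ATP. Most subunits are encoded in the nucleus, made in the cytosol and drawn in through the TOM and TIM translocases, while mitochondrial ribosomes translate the few subunits of the mitochondrial genome. Several respiratory subunits bind heme, the ligand of hemopexin, and haptoglobin binds the hemoglobin released from red cells. The liver is rich in mitochondria, which burn fatty acids and supply ATP for synthesis of glucose, urea and plasma proteins.

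Gene names, direction and array blocks limit what each value means. Spots were named by counting the annotation from its far end, under which 205 of 3476 same-gene pairs of clones were both measured, against 63 when counted directly. For the mitochondrial clones the numberings were closer, since 20.3% of the 177 clones were measured under the reversed and 16.4% under the direct one, against 13.8% of all clones on the platform. Of the 31 genes, 11 would also count as measured under the direct numbering, from other spots. The arrays fell into 2 blocks of 6 by the sign of the first component (71.5% of the sum of squares over 1129 features), and 83.9% of all features had block means of opposite sign, as did 19 of the 31 genes. Block A comprised Hx-null replicates 1 and 2, Hp-null replicates 2 and 3 and HpHx-null replicates 1 and 4; the others formed block B. On 4 arrays the block did not follow the labelled dye. Arrays of the same genotype and labelled dye correlated at 0.82 and 0.84 in Hx-null, but at -0.54 and -0.80 in Hp-null and at -0.59 and -0.13 in HpHx-null, so the direction of the ratios is not settled. Ratios are given with their deposited sign after each array was centred on its median. If the null pool was the numerator, a positive value stands for more transcript in the null liver. Each value was tested by limma with a term for the labelled dye and again with a term for the block, and was also computed with the sign of the block B arrays turned. The blocks were drawn from these values, so passing after that turn is no independent test. After it 45.5%, 54.8% and 40% of all features passed in Hx-null, Hp-null and HpHx-null. Hepatocyte transcripts were present (4 of 14 listed markers measured: Alb, Apoa1, Ttr and Serpina1e), 2 of 8 macrophage markers were measured, and the lists for red cells, muscle, fat, bile duct and stellate cells had no measured gene under a single symbol.

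With the deposited sign most mitochondrial genes, like most features, stood close to the wild-type pool. With the block term the log2 ratio lay within 0.2 of 0 for 23 of 29 tested genes in Hx-null, 24 of 31 in Hp-null and 22 of 29 in HpHx-null, and the share of all features within that distance was 82.4%, 76.3% and 85.2%. These counts depend on the direction: with the block B arrays turned they were 18, 20 and 16 genes, and with the arrays turned by the labelled dye 18, 29 and 28. With the block term and the deposited sign, 3 genes passed at an adjusted p under 0.05. Tomm70a passed in Hx-null with a positive ratio, Cox7c in Hp-null with a negative one and Atp5md in HpHx-null with a positive one. The background was of the same order. In Hx-null 2.04% of all features were called (1.82% positive), in Hp-null 2.53% (1.69% negative) and in HpHx-null 5.44% (5.14% positive). With the labelled dye term 0 mitochondrial genes passed in each null (limma, and 0 in the unmoderated test), where 0.643%, 0% and 0% of all features passed. At an unadjusted p under 0.05 (limma) 3 genes passed in each null with that term. Of all features 70 of 1865, 47 of 2017 and 99 of 1711 did so in Hx-null, Hp-null and HpHx-null. With either term the median log2 ratio of the genes was -0.04 (Hx-null), -0.05 (Hp-null) and -0.08 (HpHx-null), against -0.02, -0.01 and -0.03 over all features with the block term. The deposited sign was negative for 18 of 29, 21 of 31 and 22 of 29 genes with that term, and for 57%, 52.1% and 62.8% of all features. With the arrays turned, negative genes numbered 22, 21 and 19 by the block and 22, 19 and 14 by the labelled dye. Neither these turned counts nor those within 0.2 were computed over all features. With the sign turned by the block, the medians of the genes were -0.11, -0.06 and -0.08, against -0.03 in each null over all features. The SE of a gene ran from 0.066 to 0.20 log2 units with the block term and from 0.084 to 0.51 with the labelled dye.

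**Figure D1:**
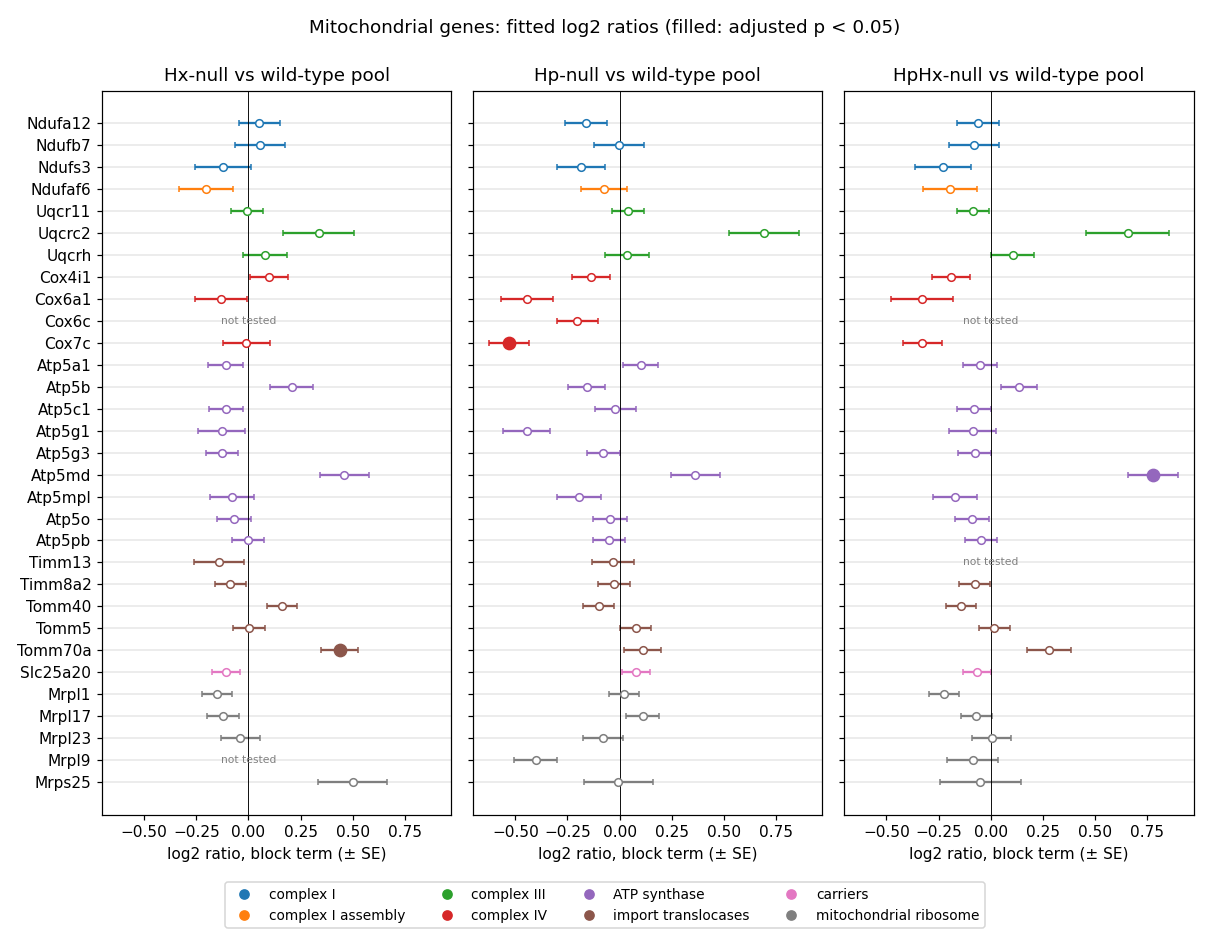
Fitted log2 ratio of each mitochondrial gene against the wild-type pool, with the block term, in 3 panels for Hx-null, Hp-null and HpHx-null; the horizontal axis is the log2 ratio with its deposited sign, bars are ± SE from limma, colours mark the role and filled points passed an adjusted p of 0.05. The filled points are Tomm70a (0.44), Cox7c (-0.53) and Atp5md (0.78), while 22 to 24 genes per panel lie within 0.2 of 0.

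The promoters of the 3 called genes are shown because these are the members that passed with the block term and the deposited sign. Promoters of respiratory genes are known for sites of NRF1 and of the ETS factor GABPA, and also of YY1 and the estrogen-related receptor ESRRA. RefSeq (GRCm38.p6) held windows of 300 bases, from 250 before to 50 after the start, for 25 of the 31 genes, in 26 windows. Both strands were searched for the palindromic NRF1 consensus, and for the letters CCGGAAG for GABPA, AANATGGCG for YY1 and CAAGGTCA for ESRRA. GABPA letters stood in 10 of the 26 windows (38.5%, against 8.9% of 32851 windows of all genes) and the NRF1 consensus in 6 (23.1%, against 4.6%). YY1 and ESRRA letters stood in 1 window each (3.8%, against 2.4% and 1.6%). Capitals mark the GABPA letters in the windows below, on either strand, and no other searched letters occurred in these 3 windows.
Atp5md, chr19:47090598-47090897, minus strand: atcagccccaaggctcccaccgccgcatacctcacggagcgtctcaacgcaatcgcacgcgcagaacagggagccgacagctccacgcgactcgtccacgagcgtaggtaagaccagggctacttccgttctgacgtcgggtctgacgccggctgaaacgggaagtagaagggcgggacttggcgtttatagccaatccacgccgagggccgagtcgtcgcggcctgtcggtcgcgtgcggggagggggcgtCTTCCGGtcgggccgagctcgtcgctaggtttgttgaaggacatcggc
Cox7c, chr13:86046746-86047045, minus strand: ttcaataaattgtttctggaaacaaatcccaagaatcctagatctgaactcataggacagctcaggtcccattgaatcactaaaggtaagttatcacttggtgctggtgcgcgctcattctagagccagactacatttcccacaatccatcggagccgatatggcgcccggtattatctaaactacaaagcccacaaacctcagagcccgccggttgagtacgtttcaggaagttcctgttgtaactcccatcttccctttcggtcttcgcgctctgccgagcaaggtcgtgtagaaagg
Tomm70a, chr16:57121464-57121763, plus strand: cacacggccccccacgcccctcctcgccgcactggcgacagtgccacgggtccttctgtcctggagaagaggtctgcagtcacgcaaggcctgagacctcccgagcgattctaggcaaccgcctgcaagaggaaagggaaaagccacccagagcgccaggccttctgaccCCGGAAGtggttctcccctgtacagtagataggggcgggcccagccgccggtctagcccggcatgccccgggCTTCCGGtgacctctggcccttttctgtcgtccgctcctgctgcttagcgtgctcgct
The windows of Atp5md and Tomm70a held GABPA letters, at 1 and 2 places, and the window of Cox7c held none of the searched letters.

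Complex I, the entry point for electrons from NADH, was measured through 3 subunits, none of which passed in any null with either term. Ndufs3, a core subunit, had ratios of -0.85, -0.41 and 0.46 on Hx-null replicates 1 to 3, with no value on replicate 4. In Hp-null it stood at -0.17, -0.39, -0.57 and 0.40, and on HpHx-null replicates 1, 3 and 4 at -0.82, 0.33 and -0.63. Its block A arrays were all below its block B arrays (-0.85 to -0.39 against -0.17 to 0.46). The sign followed the block in Hx-null and HpHx-null, whereas in Hp-null replicate 1 of block B was negative like the block A arrays. The fitted ratios were -0.12 (SE 0.13), -0.19 (SE 0.12) and -0.23 (SE 0.14) with the block term in Hx-null, Hp-null and HpHx-null, each below 2 SE in size. The turned ratio of Ndufs3 was -0.57 in Hx-null (adjusted p = 0.00936), -0.30 in Hp-null (adjusted p = 0.0673) and -0.59 in HpHx-null (adjusted p = 0.00956, limma). After that turn, which was drawn from these values, 45.5%, 54.8% and 40% of all features passed. Ndufa12, an accessory subunit, read -0.45, 0.05, 0.35 and 0.25 in Hx-null, -0.23, -0.27, -0.02 and -0.12 in Hp-null, and -0.29, 0.03, 0.26 and -0.24 in HpHx-null. Its Hp-null arrays were all negative as deposited but overlapped the others, and its fitted ratios ran from -0.16 to 0.05. The turned ratio was -0.25 in Hx-null (limma adjusted p = 0.0485), 0.02 in Hp-null and -0.21 in HpHx-null. Ndufb7, an accessory subunit on the outer face of the inner membrane, had fitted ratios of 0.05, -0.00 and -0.08.

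Ndufaf6, an assembly factor for complex I, showed the block more plainly than any subunit of that complex. Its values were 0.32, 0.63 and -0.79 on Hx-null replicates 1 to 3, -0.95, 0.64, 1.09 and -1.08 in Hp-null, and 0.54, -0.79 and 0.43 on HpHx-null replicates 1, 2 and 4. Every block A array was positive (0.32 to 1.09) and every block B array negative (-1.08 to -0.79). With the block term the ratios were -0.20 (SE 0.13), -0.08 (SE 0.11) and -0.20 (SE 0.13), and none passed. With the sign turned by the block they became 0.58, 0.94 and 0.59 (limma adjusted p = 0.00295, 3.63e-05 and 0.0031). A gene that follows the blocks passes by that turn, as did 45.5%, 54.8% and 40% of all features, so these p-values are no independent test.

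Complex III passes electrons from ubiquinol to cytochrome c and was measured through 3 genes. Uqcrc2, a large core subunit that faces the matrix, had the highest average ratio of its complex but did not pass. Its arrays read -0.48, 0.59, 0.49 and 0.75 in Hx-null, 0.72, 0.81, 1.0 and 0.25 in Hp-null, and 0.62, 0.58 and 0.76 on HpHx-null replicates 1, 2 and 4. It was positive on 10 of 11 arrays, in both blocks, and the exception was Hx-null replicate 1. The ratio was 0.34 (SE 0.17, adjusted p = 0.412) in Hx-null, 0.69 (SE 0.17, adjusted p = 0.050, just over the threshold) in Hp-null and 0.66 (SE 0.20, adjusted p = 0.0937) in HpHx-null with the block term. With the labelled dye it was 0.69 (SE 0.19) in Hp-null and 0.69 (SE 0.23) in HpHx-null, with adjusted p of 1 and 0.473. Both of its clones were positive on average in every null, at 0.07 and 0.43 in Hx-null, 0.74 and 0.65 in Hp-null, and 0.64 and 0.67 in HpHx-null. Without Hx-null replicate 1 Uqcrc2 passed in Hp-null and HpHx-null. It also passed in Hp-null without Hx-null replicate 4, Hp-null replicate 4 or HpHx-null replicate 3, and in both nulls with the values as deposited. Its turned ratios were -0.28, 0.21 and 0.27 and none passed.

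The other complex III genes lay close to 0. Uqcrh, the hinge protein that contacts cytochrome c, had values of 0.25, 0.09, 0.02 and -0.05 in Hx-null, -0.16, 0.02, -0.21 and 0.49 in Hp-null, and 0.06, 0.33, 0.05 and -0.01 in HpHx-null. Fitted ratios were 0.08, 0.04 and 0.11 (SE 0.10 each), within the spread of the arrays. Uqcr11, a small subunit, stood at -0.01, 0.04 and -0.08 (SE 0.08 each).

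Complex IV, which reduces oxygen to water, was measured through 4 nuclear subunits, all of them small or regulatory and none catalytic. In Hp-null all 4 had negative ratios (median -0.32), and in HpHx-null all 3 that could be tested (median -0.33), whereas in Hx-null 2 of 3 did (median -0.01). Of all features 52.1%, 62.8% and 57% were negative in Hp-null, HpHx-null and Hx-null. Turned by the block, 3 of 4 were negative in Hp-null, 2 of 3 in HpHx-null and 2 of 3 in Hx-null, with Cox4i1 positive in each (0.13, 0.06 and 0.12). Only Cox7c passed, in Hp-null. Cox7c, a small membrane subunit, read -0.54, -0.43 and 0.44 on Hx-null replicates 1 to 3, -0.19, -1.17, -0.94 and 0.19 in Hp-null, and -1.05, 0.0017, 0.32 and -0.58 in HpHx-null. Block A arrays were lower than block B arrays throughout (-1.17 to -0.43 against -0.19 to 0.44), and the lowest array of each block was from Hp-null. The ratio in Hp-null was -0.53 (SE 0.10, 1.44-fold, limma adjusted p = 0.0144) with the block term, negative on 3 of 4 arrays. It was -0.33 (SE 0.10, adjusted p = 0.0775) in HpHx-null and -0.01 (SE 0.11, adjusted p = 0.968) in Hx-null. The difference between Hp-null and Hx-null was -0.52 (SE 0.15) and did not pass (adjusted p = 0.152). With the labelled dye the Hp-null ratio had the same size with an SE of 0.26 (adjusted p = 1). The call was lost without Hp-null replicate 1 (adjusted p = 0.0965) or replicate 2 (adjusted p = 0.143). With turned arrays Cox7c stood at -0.47, -0.53 and -0.49 in Hx-null, Hp-null and HpHx-null (adjusted p = 0.139, 0.0548 and 0.0888).

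Cox6a1, the isoform of its subunit made in liver, had a similar order of arrays. It read -0.24, -0.07, -0.07 and -0.15 in Hx-null, -0.15, -1.12, -0.68 and 0.18 in Hp-null, and -0.79, 0.05 and -0.51 on HpHx-null replicates 1, 2 and 4. The ratio was -0.44 (SE 0.13, adjusted p = 0.0864) in Hp-null, -0.33 (SE 0.15) in HpHx-null and -0.13 (SE 0.13) in Hx-null, and none passed with either term. It passed in Hp-null without Hp-null replicate 4, and its turned ratio there was -0.46 (limma adjusted p = 0.0488), where 54.8% of all features passed. Cox6c, measured on 8 arrays, was negative on 4 of 4 arrays of Hp-null (ratio -0.20, SE 0.10; -0.07 when turned) and could not be tested in the other nulls. Cox4i1, a regulatory subunit, had ratios of 0.10, -0.14 and -0.19. Its 2 clones differed, with means of -0.03 and 0.30 in Hx-null and of 0.05 and -0.33 in Hp-null, so its average is uncertain. In the same Hp-null comparison with the block term, 4 of 24 cytosolic ribosomal proteins passed, all negative, namely Rpl10, Rpl27a, Rpl32 and Rps2 (median of the list -0.20). Of all features 1.69% passed there with a negative ratio. Of the 4 hepatocyte markers there (median -0.09), Ttr passed at -0.55 (limma adjusted p = 0.0407), and Serpina1e at 0.54, Alb at -0.01 and Apoa1 at -0.16 did not. None of these ribosomal proteins or markers passed with the labelled dye. Their part in the Cox7c result was not tested.

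**Figure D2:**
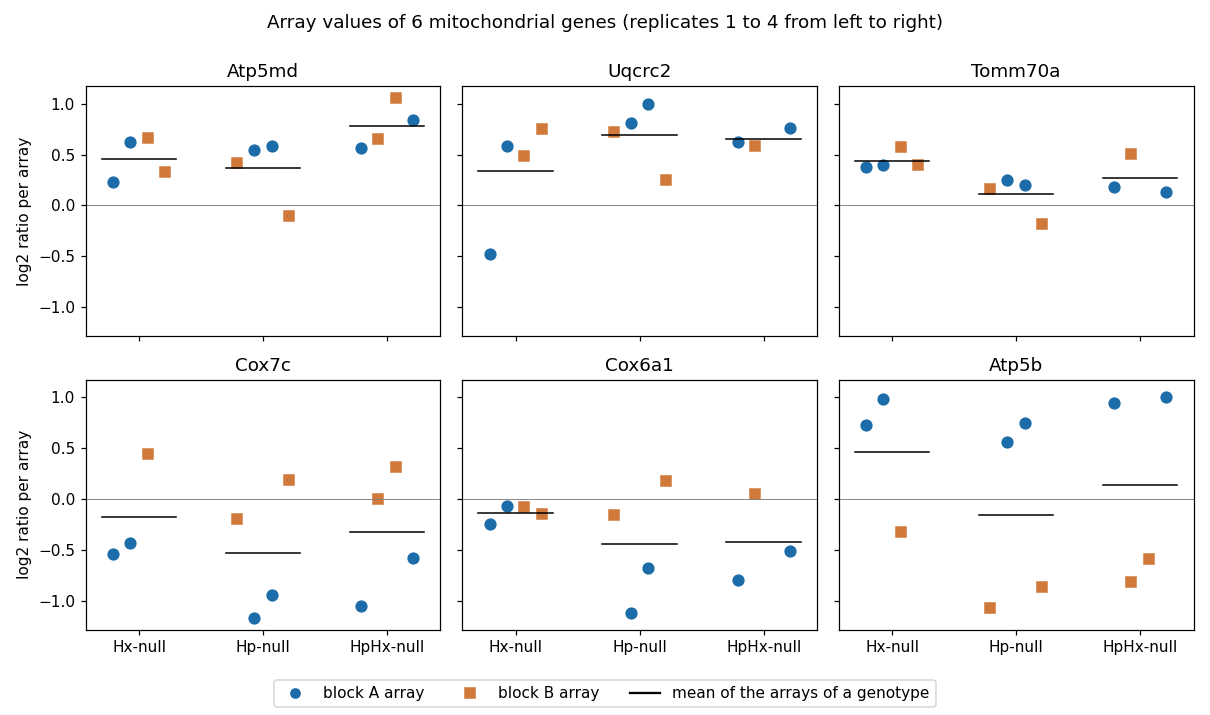
Log2 ratio on each array for Atp5md, Uqcrc2, Tomm70a, Cox7c, Cox6a1 and Atp5b, by genotype, with circles for arrays of block A, squares for arrays of block B and a line for the mean. Atp5md, Uqcrc2 and Tomm70a are each positive on all but 1 array whatever the block, whereas Atp5b is positive on every block A array and negative on every block B array.

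ATP synthase was the best covered complex, with 9 genes tested in every null. Atp5md alone passed, in HpHx-null; the other members of the complex had ratios there between -0.17 and 0.14. Atp5md, a small membrane subunit known for its place at the interface of ATP synthase dimers, read 0.23, 0.62, 0.66 and 0.32 in Hx-null, 0.42, 0.55, 0.59 and -0.10 in Hp-null, and 0.57, 0.65, 1.06 and 0.84 in HpHx-null. It was positive on 11 of 12 arrays and did not separate the blocks. The ranges of the genotypes overlapped, with HpHx-null replicates 3 and 4 above all other arrays. The ratio was 0.78 (SE 0.12, 1.71-fold, limma adjusted p = 0.00515) in HpHx-null, 0.46 (SE 0.12, adjusted p = 0.0621) in Hx-null and 0.36 (SE 0.12, adjusted p = 0.122) in Hp-null with the block term. With the labelled dye the HpHx-null ratio was 0.78 (SE 0.14) and missed the threshold (adjusted p = 0.0689). HpHx-null exceeded Hp-null by 0.41 (SE 0.17), which did not pass (adjusted p = 0.36). The HpHx-null call with the block term held without each of the 12 arrays in turn (adjusted p from 0.00261 to 0.0212), and without HpHx-null replicate 3 the ratio was 0.66. The call was lost in the unmoderated test. Atp5md also passed in Hx-null without Hp-null replicate 4 or HpHx-null replicate 3, and in Hp-null without Hp-null replicate 4. Turned by the block it was -0.08 and turned by the labelled dye -0.17, and neither passed.

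Features of other kinds were also positive in both blocks. Atp5md, Uqcrc2 and Tomm70a were the 3 mitochondrial genes among 56 features (2.73% of all) whose mean exceeded 0.25 in both blocks, a limit chosen after the values were seen. Of the other 53, 18 had 1 symbol and 12 were clones with a joined annotation entry. The median of these 53 was lowest on Hp-null replicate 4 (-0.005) and highest on HpHx-null replicate 3 (1.13), the same arrays on which Atp5md was lowest (-0.10) and highest (1.06). These features were picked by their means over the same arrays, so the shared order is no independent result. Tomm70a was also lowest on Hp-null replicate 4 (-0.18) and had no value on HpHx-null replicate 3. Uqcrc2, which met the same limit, was instead lowest on Hx-null replicate 1 and highest on Hp-null replicate 3. In HpHx-null, 1 of the 2 measured macrophage markers passed with the block term, Fcgr1 at 0.52 (limma adjusted p = 0.0147), while Fcer1g stood at -0.08 (adjusted p = 0.902). Of the 4 hepatocyte markers (median 0.30) Serpina1e passed with that term at 1.37 (limma adjusted p = 0.00341), and Alb at 0.41, Apoa1 at 0.19 and Ttr at 0.05 did not. Neither Fcgr1 nor Serpina1e passed with the labelled dye. The part of any of these in the Atp5md result was not tested.

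The catalytic head of ATP synthase gave unlike ratios for its subunits. Atp5b, the catalytic beta subunit, read 0.72, 0.99 and -0.33 on Hx-null replicates 1 to 3, -1.07, 0.56, 0.75 and -0.86 in Hp-null, and 0.94, -0.82, -0.59 and 1.01 in HpHx-null. Block A arrays ran from 0.56 to 1.01 and block B arrays from -1.07 to -0.33. The fitted ratios were therefore small, at 0.21, -0.16 and 0.14 (SE 0.09 to 0.10), and the turned ratios were 0.68, 0.81 and 0.84 (limma adjusted p = 0.00179, 0.000131 and 0.000187). As 45.5%, 54.8% and 40% of all features passed after that turn, these p-values are no independent test. Atp5a1, the alpha subunit that alternates with beta in the same ring, stood at -0.11, 0.10 and -0.05 as deposited and at -0.19, -0.14 and -0.11 when turned, and did not pass either way. Its 3 clones had means of 0.09, -0.14 and -0.14 in Hx-null and of 0.17, 0.03 and 0.07 in Hp-null. Atp5c1, the rotor subunit gamma, lay at -0.11, -0.02 and -0.08 with the block term. Turned by the block it stood at -0.25 in HpHx-null (limma adjusted p = 0.0248).

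The rest of ATP synthase comprised the proton ring and the stalks. Atp5g1 and Atp5g3 encode the same ring subunit, so cDNA of either may bind both clones, yet their arrays differed. Atp5g1 read 0.48, 0.09, -0.38 and -0.69 in Hx-null, -1.01, 0.25, 0.28 and -1.31 in Hp-null, and 0.17, -0.52, -0.37 and 0.37 in HpHx-null. Its block A arrays (0.09 to 0.48) lay above its block B arrays (-1.31 to -0.37), and Hp-null had the lowest arrays. The ratio in Hp-null was -0.45 (SE 0.11, adjusted p = 0.0513) with the block term and 0.71 (adjusted p = 0.00227) when turned, so even its sign depended on the direction. After that turn 54.8% of all features passed in Hp-null. It passed with the block term without Hp-null replicate 3 or HpHx-null replicate 3. Atp5g3 ranged only from -0.33 to 0.10 over 12 arrays, with ratios of -0.13, -0.08 and -0.08. The stalk subunits Atp5o and Atp5pb had ratios between -0.09 and -0.002, and Atp5mpl, a small proteolipid subunit, stood at -0.08, -0.19 and -0.17. Turned by the block, Atp5mpl stood at -0.40 in Hp-null (limma adjusted p = 0.0106).

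Protein import was measured through 5 genes, and Tomm70a passed in Hx-null. Tomm70a, the outer membrane receptor for carrier precursors and other proteins that arrive with chaperones, read 0.38, 0.40, 0.57 and 0.39 in Hx-null, 0.16, 0.25, 0.21 and -0.18 in Hp-null, and 0.18, 0.51 and 0.14 on HpHx-null replicates 1, 2 and 4. All 4 Hx-null arrays were above all 4 Hp-null arrays, and HpHx-null overlapped both. The ratio in Hx-null was 0.44 (SE 0.09, 1.35-fold, limma adjusted p = 0.0225) with the block term and 0.44 (SE 0.10, adjusted p = 0.271) with the labelled dye. It was 0.11 (SE 0.09) in Hp-null and 0.28 (SE 0.10) in HpHx-null. The difference of Hp-null from Hx-null, -0.33 (SE 0.13), did not pass (adjusted p = 0.284). The Hx-null call was lost without any 1 of the 4 Hx-null arrays (ratio 0.39 to 0.46, adjusted p = 0.0567, 0.107, 0.121 and 0.0855 without replicate 1, 2, 3 and 4). Turned by the block, the ratio was -0.05 in Hx-null (adjusted p = 0.832).

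Tomm40, the channel of the outer membrane, did not follow its receptor. It read -0.16, 0.05, 0.41 and 0.35 in Hx-null, -0.11, -0.23, -0.17 and 0.10 in Hp-null, and -0.43, 0.16, 0.03 and -0.34 in HpHx-null. The ratios were 0.16, -0.10 and -0.14 (SE 0.07 each), and the difference of HpHx-null from Hx-null, -0.30 (SE 0.10), had an unadjusted p of 0.0098 and did not pass (adjusted p = 0.737). Tomm5, a small subunit of the same complex, stood at 0.003, 0.08 and 0.02. Turned by the block, Tomm5 was at -0.21 in Hp-null (limma adjusted p = 0.0253), where 54.8% of all features passed. The small chaperones of the intermembrane space, Timm8a2 and Timm13, had ratios of -0.09 and -0.14 in Hx-null and of -0.03 and -0.03 in Hp-null. Timm13 had a value on 1 HpHx-null array and was not tested there, and Timm8a2 has a close paralog that its clone may also detect.

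Among 15 carriers on the platform only Slc25a20 was measured, which exchanges acylcarnitines for carnitine across the inner membrane during fatty acid oxidation. It read -0.31, -0.24, 0.11 and 0.01 in Hx-null, 0.17, 0.04, -0.05 and 0.16 in Hp-null, and -0.19, 0.22, -0.03 and -0.28 in HpHx-null. The genotypes overlapped, and the ratios of -0.11, 0.08 and -0.07 (SE 0.07 each) did not pass.

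The mitochondrial ribosome was measured through 4 proteins of the large subunit and Mrps25 of the small one, and none passed with either term. Mrps25 read 0.15, 0.34, 0.85 and 0.67 in Hx-null, 0.67, -0.09, 0.006 and -0.61 in Hp-null, and 0.15, -0.32 and -0.04 on HpHx-null replicates 1, 3 and 4. All Hx-null arrays were positive as deposited, but Hp-null spread over both signs, and the Hx-null ratio of 0.50 (SE 0.17) had an adjusted p of 0.151. When turned, that ratio was -0.26 (adjusted p = 0.352), of the opposite sign. Mrpl1 read -0.21, -0.0008, -0.12 and -0.29 in Hx-null, -0.01, 0.12, -0.09 and 0.06 in Hp-null, and -0.13, -0.33, -0.13 and -0.30 in HpHx-null. As deposited it was negative on 8 of 8 arrays of the nulls without hemopexin, by as little as -0.0008, with ratios of -0.15 (SE 0.07, adjusted p = 0.367) and -0.22 (SE 0.07, adjusted p = 0.102), against 0.02 in Hp-null. Its turned ratios were 0.05 in Hx-null and 0.009 in HpHx-null, so the sign depended on the direction. Mrpl9 was negative on 4 of 4 Hp-null arrays (-0.50, -0.39, -0.24 and -0.48; ratio -0.40, SE 0.11, adjusted p = 0.0747) and held too few values in Hx-null. Its turned ratio in Hp-null was 0.09 by the block and -0.04 by the labelled dye. With the block term Mrpl9 passed in Hp-null without Hp-null replicate 3. Mrpl17 and Mrpl23 had ratios between -0.12 and 0.11 in all 3 nulls. Turned by the block, Mrpl23 stood at -0.25 in HpHx-null (limma adjusted p = 0.0382), where 40% of all features passed.

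The split of the arrays into blocks is given for the genes as a description without a test. The blocks did not overlap for 6 of the 31 genes (19.4%), against 1128 of 2052 features (55.0%). In Atp5b, Ndufaf6 and Atp5g1 block A was higher, and in Cox7c, Ndufs3 and Timm13 block B was. The median size of the difference between block means was 0.28 for the genes and 0.55 for all features, and 24 of the 31 genes were lower in block A, against 52.2% of all features. The signed median of block A minus block B was -0.17 for the genes and -0.03 for all features. After the turn by the block, 5 of 29 genes passed in Hx-null, 6 of 31 in Hp-null and 5 of 29 in HpHx-null, where 45.5%, 54.8% and 40% of all features passed. Because the blocks were drawn from these values, those calls are no independent test. Turned by the labelled dye, 0 genes and 0 features passed in each null (limma).

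**Figure D3:**
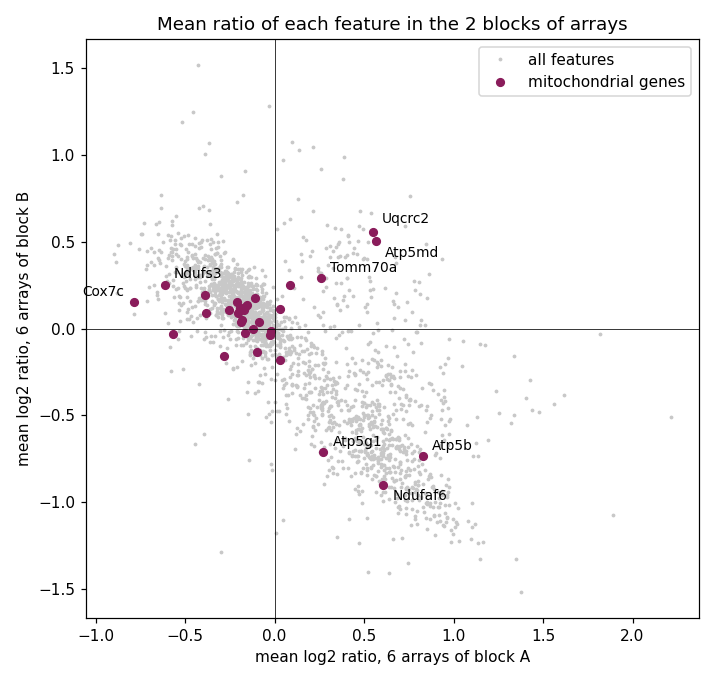
Mean log2 ratio over the 6 arrays of block A (horizontal axis) against the mean over the 6 arrays of block B (vertical axis), for each feature (grey) and each mitochondrial gene (purple). Most features lie along a falling diagonal, most mitochondrial genes lie near its centre, and Atp5md, Uqcrc2 and Tomm70a are positive in both blocks.

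Between the null genotypes no mitochondrial gene passed with either term. Over all features, 1.14% passed for Hp-null against Hx-null with the block term, 0.181% for HpHx-null against Hx-null, 0% for HpHx-null against Hp-null, and 0.0608% for HpHx-null against the summed ratios of the single nulls (with the labelled dye 0.595%, 0%, 0% and 0%). At an unadjusted p under 0.05 the genes numbered 4 of 29, 3 of 28, 4 of 29 and 1 of 28 with the block term in limma and 0 in each with the labelled dye. Features of all kinds at that p numbered 269 of 1848, 93 of 1654, 214 of 1690 and 131 of 1646 with the block term. With the labelled dye they numbered 31, 15, 37 and 18. The gene at an unadjusted p under 0.05 against the sum was Atp5g1, at 0.49 (SE 0.19, adjusted p = 0.523). Atp5b differed by -0.36 (SE 0.14, adjusted p = 0.267) in Hp-null from Hx-null and by 0.29 (SE 0.13, adjusted p = 0.369) in HpHx-null from Hp-null. All 3 nulls share the wild-type pool. The 3 called genes, each with its ratio in Hx-null, Hp-null and HpHx-null, therefore stand side by side only as values: 0.44, 0.11 and 0.28 for Tomm70a, -0.01, -0.53 and -0.33 for Cox7c, and 0.46, 0.36 and 0.78 for Atp5md.

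Lists of genes that work with these complexes were sparsely measured. Of 42 assembly factors 4 were tested (Ndufaf6, described above, Sdhaf2, Atpaf2 and Chchd2), and Chchd2, a small intermembrane space protein linked to complex IV, passed in Hp-null with the block term (-0.53, SE 0.11, adjusted p = 0.0356). Of 25 urea cycle and amino acid enzymes only Glud1, the glutamate dehydrogenase of the matrix, was measured, and it passed in HpHx-null (0.43, SE 0.11, adjusted p = 0.0483). Neither passed with the labelled dye, and both ratios carry the deposited sign only. Of 24 genes listed for the citric acid cycle and its feeders, Idh2, Pcx and Mdh1, the cytosolic malate dehydrogenase, were measured and 0 passed with either term. Their ratios ran from -0.14 to -0.01 with the block term and from -0.12 to 0.11 with the labelled dye. The chaperones Hspe1, Hspa9 and Dnaja3 (3 of 25), the outer membrane channel Vdac1 (1 of 24), Mtif2 and Kars of mitochondrial gene expression (2 of 35), the regulator Yy1 (1 of 15) and the peroxidase Gpx1 (1 of 16) did not pass with either term. The lists of fatty acid oxidation (27 genes) and of heme and iron-sulfur steps (19 genes) had no measured gene.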

How the data were processed

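RNA of pooled livers was measured on 12 spotted cDNA arrays with 2 colours. Per the labels, the null pool was in channel 2 of each array, with Cy5 on replicates 1 and 2 and Cy3 on replicates 3 and 4. The authors deposited 1 table of log ratios for 31200 spots, taken here as log2 values because of their range; the base, the normalization, the filter and the direction were not given in the sources used here. Per array 3009 to 4165 spots held a value, and the number of arrays limits the precision. Neighbouring spots of 1 clone were averaged, arrays were centred on their median and clones of 1 gene were averaged. Spot k took the symbol of spot 31201 minus k in the platform annotation.

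limma 3.58.1 in R 4.3.3 (lmFit, robust eBayes) was fitted to all 12 arrays and all features with 1 coefficient per genotype and a term for the labelled dye, and again with a term for the block, which was taken from the values. A feature was tested with at least 3 of 4 arrays in each genotype compared, and p-values were adjusted by the Benjamini-Hochberg method over all features tested (threshold 0.05). The code was tested on simulated data. Given with every array's value are genes past the threshold in any comparison with either term, and in each role the 2 with the largest mean ratio in size over the 3 nulls among those with at least 10 arrays; Atp5b and other values outside this rule were chosen after they were seen. The genes, the lists and the block were chosen with earlier results of these data known. Promoter windows came from RefSeq (GRCm38.p6). Alternatives covered scaling, moderation, the term, the filter, the direction, the numbering and each array left out.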

Additional observations from a re-analysis of the deposited data

Results flagged for a closer look

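In 79 groups of 4 arrays (each gene in each null, and the median of the genes), 5 had an array farther from the others than Dixon's limit for the gap over the range, where chance gives about 1 in 20, or 4.0. Tomm70a on Hx-null replicate 3 stood at 0.57, while the other Hx-null arrays lay between 0.38 and 0.40. It is the gene called in Hx-null, and all 4 of its arrays were positive. On Hp-null replicate 3 Atp5a1 stood at -0.25 (others 0.18 to 0.27) and Mrpl17 at -0.20 (others 0.19 to 0.23). Timm8a2 stood at -0.13 on Hp-null replicate 1 (others 0.001 to 0.02), and Atp5mpl at -0.36 on Hx-null replicate 2 (others -0.003 to 0.04). The causes were not tested.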

How the results depend on the processing

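The counts of mitochondrial genes past the threshold (Hx-null, Hp-null and HpHx-null against wild-type) were 0, 0 and 0 with the labelled dye term and 1, 1 and 1 with the block term. With the labelled dye, the HpHx-null count became 1 (Atp5md) with no term, with features measured on all 12 arrays, and with only the 8 arrays whose block follows the labelled dye, an alternative chosen after seeing the data. With either term replaced by turning the arrays by the block, the counts were 5, 6 and 5, where 45.5%, 54.8% and 40% of all features passed. After that turn 2 of 28 genes passed against the summed ratios of the single nulls, where 25.8% of all features passed. With the block term, values as deposited gave 2, 5 and 3, and quantile scaling gave 2 in Hx-null and 2 in HpHx-null. The unmoderated test, the direct numbering, the replicate block and turning by the labelled dye each gave 0 in all 3 nulls. No term gave 0 in Hx-null and Hp-null, as did features measured on all 12 arrays (Tomm70a and Cox7c lack an array), calls of at least 1.5-fold and the 8 arrays. Each clone on its own gave 3 in Hp-null. Arrays left out in turn gave 0 to 2 in Hx-null, 0 to 4 in Hp-null and 1 to 2 in HpHx-null with the block term, and 0 to 1 in HpHx-null with the labelled dye (1 without Hp-null replicate 4). Without Hp-null replicate 3, 4 or HpHx-null replicate 3 the Hp-null count was 3, 4 and 3. Apart from the arrays turned by the block, the share of all features passing in these alternatives is not given here. A change in these counts can therefore not be read as particular to the mitochondrial genes. Of the called genes, Tomm70a turned to -0.047 under either turning and Atp5md to -0.077 by the block and -0.17 by the labelled dye. The cause was not tested. The medians of the genes were followed only beside the fit with the labelled dye, and not for single clones, the direct numbering or the 1.5-fold limit. There they moved by less than 1 SD of the array medians of that null, a limit wide enough for the sign to change. That of Hx-null went from -0.04 to 0.015 without Hx-null replicate 1. That of HpHx-null went from -0.08 to 0.008 when turned by the labelled dye. The replicate numbers did not pair the arrays (deviations of same-numbered arrays correlated at -0.87 to 0.86, over 0.1 in 4 of 12 pairs, and 2 of 12 arrays correlated best with their own number), so the replicate block, which also holds the labelled dye, is reported only here. With 4 arrays of 1 pool pair per genotype and an SE near 0.1, even ratios several times the SE could miss the threshold. With the block term Atp5md at 0.46 in Hx-null (SE 0.12) and Atp5g1 at -0.45 in Hp-null (SE 0.11) did not pass. Differences of that size or smaller may therefore have gone undetected.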
